A study of Mus musculus with 9 samples.

Results

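The genes described here are placental growth factor (Pgf) and its relatives in the vascular endothelial growth factor (VEGF) family, with their receptors: Pgf, Vegfa, Vegfb, Vegfc, Vegfd, Flt1, Nrp1 and Nrp2. Members were found by symbol in the deposited expression table. Of these 8 genes, 4 have a row, Pgf, Vegfa, Vegfd and Nrp1, among 15446 uniquely named genes. Vegfb, Vegfc, Flt1 and Nrp2 are unmeasured here, which says nothing of their expression. Pgf was chosen by its fold changes against the control in these same libraries, so its values are a description and carry no test. The other members were listed for their family, with earlier results of these data known.

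ROC6 is a murine oral squamous cell line, and polyadenylated RNA was sequenced from 3 groups of 3 libraries. Cells of the first group carry a Csmd3 knockout made with guide 1, and cells of the second a Csmd3 knockout made with guide 2. The control is ROC6 labelled wild type, and all cells were grown in the same serum-containing medium. The series' design text calls the knockouts clone 1 and clone 2, so each guide appears to be 1 clone, and an effect of the knockout cannot be told apart from a property of the clone. The labels do not say whether replicates are separate cultures. The p-values then measure only the spread among these libraries, which could be technical. Csmd3 itself was not analysed here.

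VEGF ligands are secreted dimers that bind receptor tyrosine kinases on the vessel wall. VEGF-A binds VEGFR1 and VEGFR2, placental growth factor binds VEGFR1 only, and VEGF-D is chiefly a ligand of VEGFR3, the receptor of lymphatic endothelium. Neuropilins are co-receptors that bind VEGF ligands and also class 3 semaphorins. In squamous carcinoma, tumour cells are a known source of VEGF ligands, while the receptors belong mainly to the surrounding endothelium.

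The ligand genes whose order of expression differed between groups can be set side by side by the sequence around their annotated starts. RefSeq promoter windows (build GRCm38.p6) matched all 4 measured members by symbol, with 2 windows each for Pgf and Vegfa and 1 each for Vegfd and Nrp1. The first window of Pgf and of Vegfa is shown. All 3 matches in that Pgf window lie inside the first exon of a longer Pgf transcript in GENCODE, so its letters are not upstream sequence for that transcript, as those of Vegfa and Vegfd are. Capitals mark matches on either strand to 4 motifs: the hypoxia response core (ACGTG or GCGTG), the metal response core (TGCACNC or TGCGCNC), the GC box (GGGCGG) and the AP-1 site (TGANTCA). No matches to different motifs overlap in the sequences shown. For Vegfa the 250 bases before the start are shown (chr17:46032378-46032627, minus strand), for Vegfd the 106 bases before the first annotated exon (chrX:164373272-164373377, plus strand), and for Pgf 30-base stretches around 2 of its 3 matches (chr12:85177421-85177450 and chr12:85177346-85177375, minus strand).
Vegfa: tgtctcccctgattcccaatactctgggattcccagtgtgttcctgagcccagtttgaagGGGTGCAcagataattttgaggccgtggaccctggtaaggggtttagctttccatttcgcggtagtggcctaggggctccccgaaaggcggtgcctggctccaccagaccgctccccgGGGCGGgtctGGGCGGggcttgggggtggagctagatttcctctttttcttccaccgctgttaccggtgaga
Vegfd: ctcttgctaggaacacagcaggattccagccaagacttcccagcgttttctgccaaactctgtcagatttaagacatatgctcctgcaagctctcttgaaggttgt
Pgf, hypoxia response core: cgccctgcggggtCACGCgcactcaggtct
Pgf, GC box: cgagatagaagtGGGCGGgcaggctgcagc
The third Pgf match, a GC box on the other strand, lies just past the end of the second stretch. The stretch around it overlaps the second and is not printed. The Pgf and Vegfa windows shown have a GC content of 66.0% and 62.0%, and the Vegfd window holds none of the 4 motifs, with a GC content of 42.0%. The second Pgf window (GC content 64.0%) holds none of the 4 motifs either. The second Vegfa window (GC content 59.3%) holds 2 hypoxia response cores, 1 metal response core and 1 GC box, so a hypoxia response core is found near an annotated start of both Pgf and Vegfa. Both of these Vegfa cores lie inside an annotated exon, as the Pgf core does, and the first Vegfa window holds no hypoxia response core. The Nrp1 window holds 1 hypoxia response core and 1 GC box. The median over 32851 windows of 300 bases is 52.7%. Of those windows, 43.8% hold a hypoxia response core, 25.7% a metal response core, 35.7% a GC box and 7.81% an AP-1 site, so the first 3 are common. The matches are a description of letters, and no binding was measured.

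The unit is FPKM, in which fragments are divided by transcript length and by the library's total, so levels may be compared between genes. Read depth is unknown. Library sums over uniquely named genes ranged from 162625 to 168620 FPKM. Tests covered 6965 genes whose mean reached 1 FPKM. In 15441 of the 15446 rows the means of both knockouts are above, or both below, that of the control, so a shared direction of the guides is a property of the rows. Squamous markers were incomplete: 8 of 15 have a row, and Krt16, Krt17 and Col17a1 had means of at most 0.168 FPKM. Their summed level was 82.0 to 90.1 FPKM in the control, 132 to 143 with guide 1 and 93.4 to 98.0 with guide 2, the order of groups seen below for Pgf and Vegfa. Perp makes up most of that sum and was not called with guide 2 (limma adjusted p = 0.213). All 4 tested squamous markers were called higher with guide 1 and 2 of them with guide 2, beside 30.2% and 31.9% of all genes tested. Itgb4, untested at a mean under 1 FPKM, went the other way. Its means were 0.309, 0.612 and 0.843 FPKM in guide 1, guide 2 and control. When all 15446 genes were tested, Itgb4 was lower with each guide (limma adjusted p = 0.000217 and 0.02998). Means in guide 1, guide 2 and control were 20.9, 7.99 and 3.09 FPKM for the junction protein Jup, 9.49, 2.34 and 2.23 FPKM for the integrin Itga6, 2.99, 1.61 and 1.03 FPKM for Sfn, and 105, 83.4 and 79.1 FPKM for Perp. Of fibroblast markers 2 of 10 have a row, with a summed level of 0.840 to 1.60 FPKM in the control, 1.44 to 1.82 with guide 1 and 7.89 to 9.08 with guide 2. Of leukocyte markers 2 of 8 have a row, with a summed level of 0.473 to 0.875 FPKM in the control, 1.20 to 1.54 with guide 1 and 1.81 to 2.67 with guide 2. Of these Cd68, a macrophage marker, was called higher with each guide (limma adjusted p = 0.00238 and 4.27e-05). The part of these marker lists in the results was not tested, and in bulk RNA fewer cells of a type cannot be told apart from less RNA per cell.

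Pgf was nearly silent in the control and among the more abundant members with guide 1. The control libraries had 0.509, 0.494 and 0.346 FPKM, the guide 1 libraries 40.0, 40.1 and 39.4 FPKM, and the guide 2 libraries 2.37, 1.80 and 2.54 FPKM. The 3 groups do not overlap, and the guide 1 libraries lie close together. Group means were 0.450 ± 0.0901 (SD, n = 3), 39.8 ± 0.381 and 2.24 ± 0.392 FPKM, a ratio of 88.6 for guide 1 to control and 4.98 for guide 2 to control. On the log2(FPKM + 1) scale, which understates changes of low genes, the differences were 4.82 and 1.15 (SE 0.0873 for each). With a pseudocount of 0.1 in place of 1 they were 6.20 and 2.09. The level with guide 1 was 17.8 times that with guide 2.

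Vegfa, the central ligand of blood vessel growth, was higher in both knockouts. Its control libraries had 13.3, 13.2 and 11.4 FPKM, its guide 1 libraries 37.7, 39.5 and 42.5 FPKM, and its guide 2 libraries 18.5, 19.6 and 20.3 FPKM. Every guide 1 library exceeds every guide 2 library, and every guide 2 library exceeds every control library. Against the control Vegfa rose by 1.59 log2 units with guide 1 (SE 0.0686, limma adjusted p = 1.44e-08), to 3.16 times the control mean. It rose by 0.59 log2 units with guide 2 (SE 0.0686, limma adjusted p = 2.85e-05), to 1.55 times the control mean. The difference of guide 2 from guide 1 was -0.997 log2 units (SE 0.0686, limma adjusted p = 1.05e-06).

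Vegfd, the lymphatic ligand of the family, moved the other way. Its control libraries had 29.3, 29.2 and 19.95 FPKM, its guide 1 libraries 0.968, 1.98 and 1.38 FPKM, and its guide 2 libraries 4.81, 5.24 and 4.94 FPKM. The third control library is lower than the other two, yet lies far above all knockout libraries. Vegfd fell by 3.47 log2 units with guide 1 (SE 0.163, limma adjusted p = 2.69e-08), where the control mean was 18.1 times the guide 1 mean. It fell by 2.16 log2 units with guide 2 (SE 0.163, limma adjusted p = 1.17e-06), where the control mean was 5.24 times the guide 2 mean. It was 1.32 log2 units higher with guide 2 than with guide 1 (SE 0.163, limma adjusted p = 6.97e-05). Without the third control library the differences from control were -3.65 and -2.34 log2 units.

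**Figure D1:**
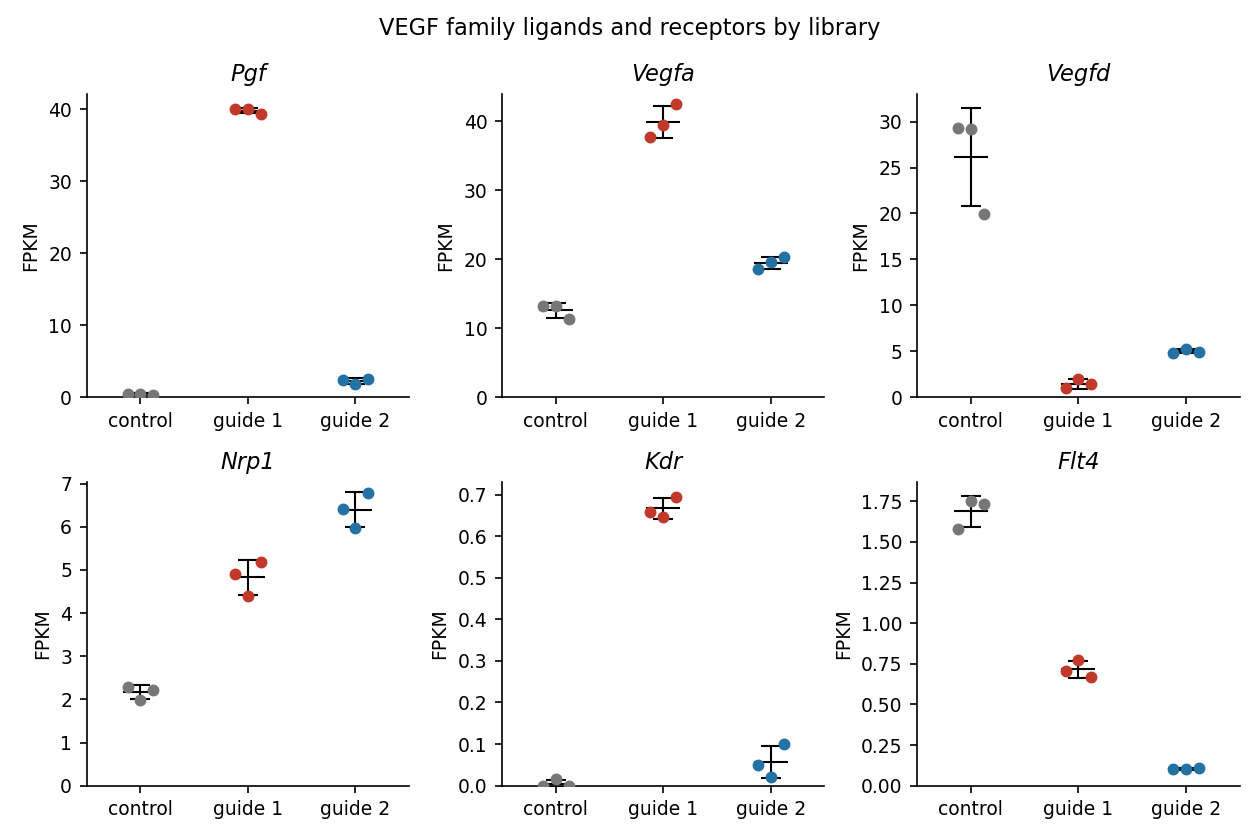
FPKM (vertical axes, each starting at 0 and scaled by gene) of 4 measured members and of the receptors Kdr and Flt4 in the control, guide 1 and guide 2 libraries. Points are libraries, and the bars are the mean ± SD of 3 libraries. Pgf stands at 39.4 to 40.1 FPKM with guide 1 and at or below 2.54 FPKM in the other groups, while Vegfd is highest in the control.

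The order of the ligands by level was therefore different in each group. Between the guides it differed only in the place of Pgf, which was chosen by its fold changes, as Vegfa was above Vegfd in both. In the control it ran Vegfd (26.2 ± 5.37 FPKM, SD, n = 3), Vegfa (12.6 ± 1.08 FPKM), Pgf. With guide 1 Vegfa (39.9 ± 2.39 FPKM) and Pgf (39.8 ± 0.381 FPKM) overlapped at the top and Vegfd (1.44 ± 0.506 FPKM) was lowest. With guide 2 it ran Vegfa (19.5 ± 0.883 FPKM), Vegfd (5.00 ± 0.225 FPKM), Pgf, with no overlap between neighbours.

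Summed over the 3 measured ligands, the level was 31.7 to 43.0 FPKM in the control libraries, 78.7 to 83.3 FPKM with guide 1 and 25.7 to 27.8 FPKM with guide 2. The knockouts therefore lie on opposite sides of the control in this sum, a difference that was not tested. The sum includes Pgf, which was chosen by its fold changes, so the place of guide 1 above the control rests on that choice. The share of Vegfd in the sum was 66.4% ± 2.91 (SD, n = 3) in the control, and with guide 1 and guide 2 it was 1.77% ± 0.604 and 18.7% ± 0.932. Pgf made up 1.14% ± 0.0456 in the control, then 49.1% ± 1.75 and 8.38% ± 1.42. Vegfa made up 32.5% ± 2.95, 49.1% ± 1.65 and 72.9% ± 0.780, in the same order. The ratio of Vegfa to Vegfd was 0.451 to 0.569 in the control libraries, 19.97 to 39.0 with guide 1 and 3.75 to 4.11 with guide 2. These sums leave out Vegfb and Vegfc.

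**Figure D2:**
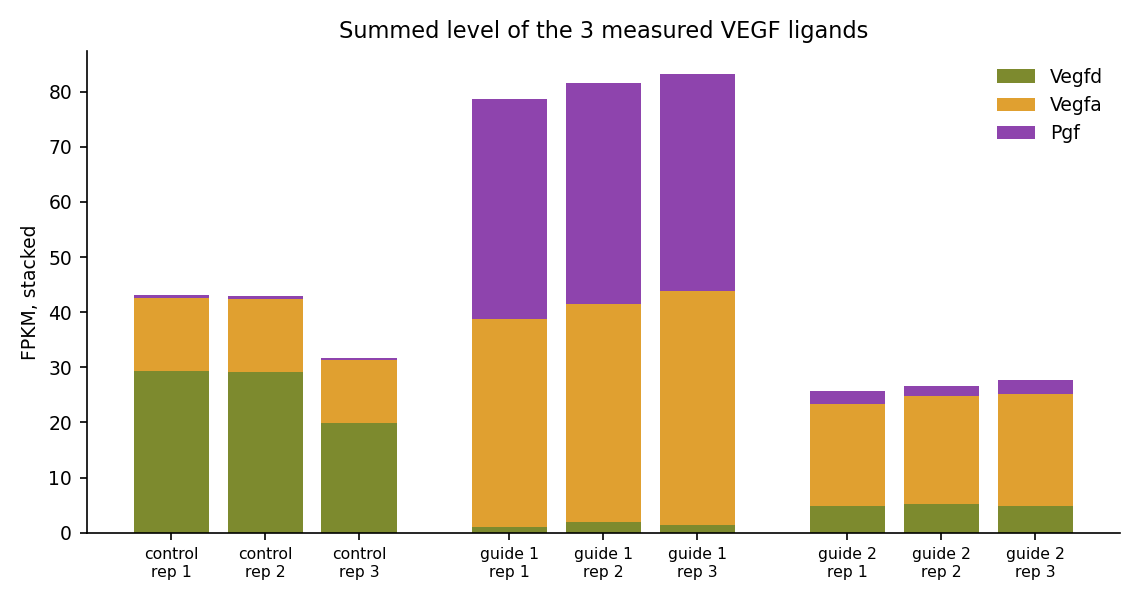
Stacked FPKM of Vegfd, Vegfa and Pgf (vertical axis) in each of the 9 libraries, labelled by group and replicate. Vegfd takes most of each control bar, Vegfa and Pgf take nearly all of each guide 1 bar, and Vegfa takes most of each guide 2 bar.

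Nrp1, the co-receptor neuropilin 1, was higher in both knockouts. The control libraries had 2.29, 1.99 and 2.22 FPKM, the guide 1 libraries 4.90, 4.38 and 5.19 FPKM, and the guide 2 libraries 6.42, 5.98 and 6.78 FPKM. No group overlaps another, and here, unlike for Vegfa and Pgf, guide 2 is the highest. Nrp1 rose by 0.88 log2 units with guide 1 (SE 0.0722, limma adjusted p = 1.81e-06) and by 1.22 with guide 2 (SE 0.0722, limma adjusted p = 1.88e-07). The difference of guide 2 from guide 1 was 0.35 log2 units (SE 0.0722, limma adjusted p = 0.00227).

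So 2 of the 3 tested members other than Pgf, Vegfa and Nrp1, were called higher with each guide, and Vegfd was called lower with each. Over all genes tested, 30.2% were called higher and 37.9% lower with guide 1 (68.1% in all), and 31.9% higher and 33.5% lower with guide 2 (65.4% in all). Genes called higher with each guide made up 22.6%, and genes called lower with each made up 26.2%. Between the guides 54.5% of genes were called, 31.2% higher with guide 2 and 23.3% lower, and all 3 of these members differed. Calls are thus common in this table.

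The measured receptor tyrosine kinases were low, and only Flt4 in the control passed 1 FPKM. Kdr, which encodes VEGFR2, was listed at 0, 0.0150 and 0 FPKM in the control, at 0.658, 0.647 and 0.695 FPKM with guide 1, and at 0.0498, 0.0219 and 0.0992 FPKM with guide 2. Flt4, which encodes VEGFR3, had 1.58, 1.75 and 1.73 FPKM in the control, 0.705, 0.773 and 0.669 FPKM with guide 1, and 0.101, 0.1002 and 0.110 FPKM with guide 2. For each receptor the 3 groups do not overlap, and the order of the groups differs: Kdr is highest with guide 1, Flt4 in the control. Both had means under 1 FPKM over all libraries and were outside the test. When all 15446 genes were tested, Kdr differed from control by 0.73 log2 units with guide 1 (limma adjusted p = 1.07e-06) and by 0.07 with guide 2 (limma adjusted p = 0.118). In the same fit Flt4 differed by -0.65 (limma adjusted p = 2.85e-05) and -1.28 (limma adjusted p = 1.06e-06). Other endothelial markers were low and went both ways. Besides Kdr, 6 of 17 listed markers have a row, and their summed level was 2.04 to 2.18 FPKM with guide 1, 3.42 to 3.76 with guide 2 and 2.30 to 2.99 in the control. Egfl7, a secreted endothelial factor, was called higher with each guide, where the control had 1.05 ± 0.196 FPKM (SD, n = 3), guide 1 had 1.61 ± 0.0641 and guide 2 had 1.98 ± 0.149. In GENCODE, exons of Egfl7 overlap those of Agpat2 on the other strand and of a predicted gene on the same strand. Erg, an endothelial transcription factor, fell with each guide when all genes were tested (limma adjusted p = 1.46e-05 and 0.00727). For Erg the control had 1.47 ± 0.290 FPKM, guide 1 had 0.0334 ± 0.0289 and guide 2 had 0.850 ± 0.0508. In that fit Plvap, a protein of endothelial diaphragms, rose with each guide (limma adjusted p = 0.00936 and 0.000362), from 0.0736 ± 0.0858 FPKM to 0.375 ± 0.121 and 0.711 ± 0.0813. Vwf, a defining marker of endothelium, had means of 0.0192 FPKM with guide 1 and 0.0140 with guide 2, and was listed at 0 in every control library.

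Class 3 semaphorins compete with VEGF for neuropilins, and plexins are their signalling receptors. Of 12 such genes 7 have a row and 5 were tested: 4 were called higher with guide 1 and 0 lower, and 4 higher and 1 lower with guide 2. Over all genes tested, 30.2% were called higher with guide 1 and 31.9% with guide 2. Sema3a, a repulsive guidance ligand of neuropilin 1, rose with each guide: the control had 0.685 ± 0.101 FPKM (SD, n = 3), guide 1 had 2.77 ± 0.137 and guide 2 had 7.46 ± 0.439. Sema3a differed by 1.17 log2 units between the guides (limma adjusted p = 4.05e-07), with guide 2 higher, the order seen for Nrp1. Sema3b was called higher with each: the control had 0.639 ± 0.0847 FPKM, guide 1 had 1.06 ± 0.121 and guide 2 had 2.10 ± 0.384. With guide 1 its difference of 0.33 log2 units (limma adjusted p = 0.0161) was 0.29 without the second guide 1 library (limma adjusted p = 0.0554). Plxna3 passed narrowly with guide 2, at 0.34 log2 units (limma adjusted p = 0.0463), where its libraries overlap those of the control. It was 0.18 without the second guide 2 library (limma adjusted p = 0.171). Of the fits that left out 1 library, only that without the first guide 2 library kept this call (limma adjusted p = 0.00400). In the others the limma adjusted p ran from 0.0508 to 0.171.

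VEGF-C and VEGF-D are secreted as precursors and mature by proteolysis. Of 11 genes of this processing 7 have a row and 6 were tested: 2 were called higher and 4 lower with guide 1, and 1 higher and 4 lower with guide 2. The shares called lower over all genes tested were 37.9% and 33.5%. Pcsk6, a convertase that cuts protein precursors, fell in both knockouts. Its control level was 19.5 ± 1.39 FPKM (SD, n = 3), against 0.587 ± 0.148 with guide 1 and 0.232 ± 0.0788 with guide 2. Plau, urokinase plasminogen activator, rose in both: the control had 11.5 ± 0.885 FPKM, guide 1 had 94.2 ± 1.89 and guide 2 had 29.98 ± 1.03, the order of groups seen for Vegfa. Ccbe1, a secreted cofactor of VEGF-C cleavage, was low outside guide 1: the control had 0.123 ± 0.0490 FPKM, guide 1 had 2.82 ± 0.370 and guide 2 had 0.164 ± 0.0281. Ccbe1 was called with guide 1 (1.76 log2 units, limma adjusted p = 6.59e-08) and not with guide 2 (0.05 log2 units, limma adjusted p = 0.645), and the guides differed (-1.71 log2 units, limma adjusted p = 2.05e-07).

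Oxygen sensing through HIF and VHL is the best known control of Vegfa. Of 11 such genes 5 have a row and 4 were tested, and Hif1a, Arnt and Vhl are unmeasured here. With guide 1, 1 was called higher and 2 lower, beside 30.2% and 37.9% of all genes tested. With guide 2, 1 was called higher and 1 lower, beside 31.9% and 33.5%. The gene called higher with guide 2 is Mtf1, the metal-responsive transcription factor, which is not itself an oxygen sensor, at 0.18 log2 units (limma adjusted p = 0.0434). Its call was lost under 9 of 17 alternatives, among them the fits without the first guide 1 library, any guide 2 library or the first or second control library (limma adjusted p from 0.0544 to 0.136). Egln3, a prolyl hydroxylase that HIF itself induces, rose with guide 1, from 1.72 ± 0.0638 FPKM (SD, n = 3) to 4.93 ± 0.364, and stood at 1.84 ± 0.287 with guide 2 (limma adjusted p = 0.574). Epas1, which encodes HIF-2 alpha, fell with guide 1, from 7.24 ± 0.762 to 3.97 ± 0.275 FPKM, and stood at 7.01 ± 0.114 with guide 2 (limma adjusted p = 0.673). Egln1, the main prolyl hydroxylase of HIF, fell with each guide: the control had 34.3 ± 1.02 FPKM, guide 1 had 30.7 ± 1.27 and the level was 23.7 ± 0.2999 with guide 2. Egln3 and Epas1 also differed between the guides (limma adjusted p = 2.93e-06 and 2.38e-05).

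Genes of signalling below VEGF receptors went both ways. Of 30 listed genes 18 were tested, with 3 called higher and 8 lower with guide 1 and 5 higher and 6 lower with guide 2. Their median log2 fold change was -0.09 with guide 1 and -0.07 with guide 2, beside -0.04 and -0.03 over all genes tested. Of all genes tested, 68.1% were called in either direction with guide 1 and 65.4% with guide 2. The largest differences in the list were those of the adaptor Nck1, at 0.79 log2 units with guide 2 (limma adjusted p = 7.51e-06), of Hras, at -0.59 with guide 2 (limma adjusted p = 2.53e-05), and of the adaptor Shb, at -0.58 with guide 2 (limma adjusted p = 4.67e-06). Nck1 with guide 1 stood at 0.05 (limma adjusted p = 0.55) and Hras at -0.12 (limma adjusted p = 0.133).

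The PDGF family is the closest relative of the VEGF ligands. Of 7 genes 3 have a row and were tested. Pdgfc, a ligand, rose with each guide: the control had 3.73 ± 0.180 FPKM (SD, n = 3), guide 1 had 9.12 ± 0.608 and guide 2 had 8.08 ± 0.239. Pdgfd, another ligand, fell from 2.18 ± 0.360 FPKM to 0.655 ± 0.0856 and 0.243 ± 0.122. Pdgfrl, a receptor-like protein, fell with guide 1, from 3.17 ± 0.722 to 0.198 ± 0.108 FPKM, and stood at 3.08 ± 0.374 with guide 2 (limma adjusted p = 0.907).

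**Figure D3:**
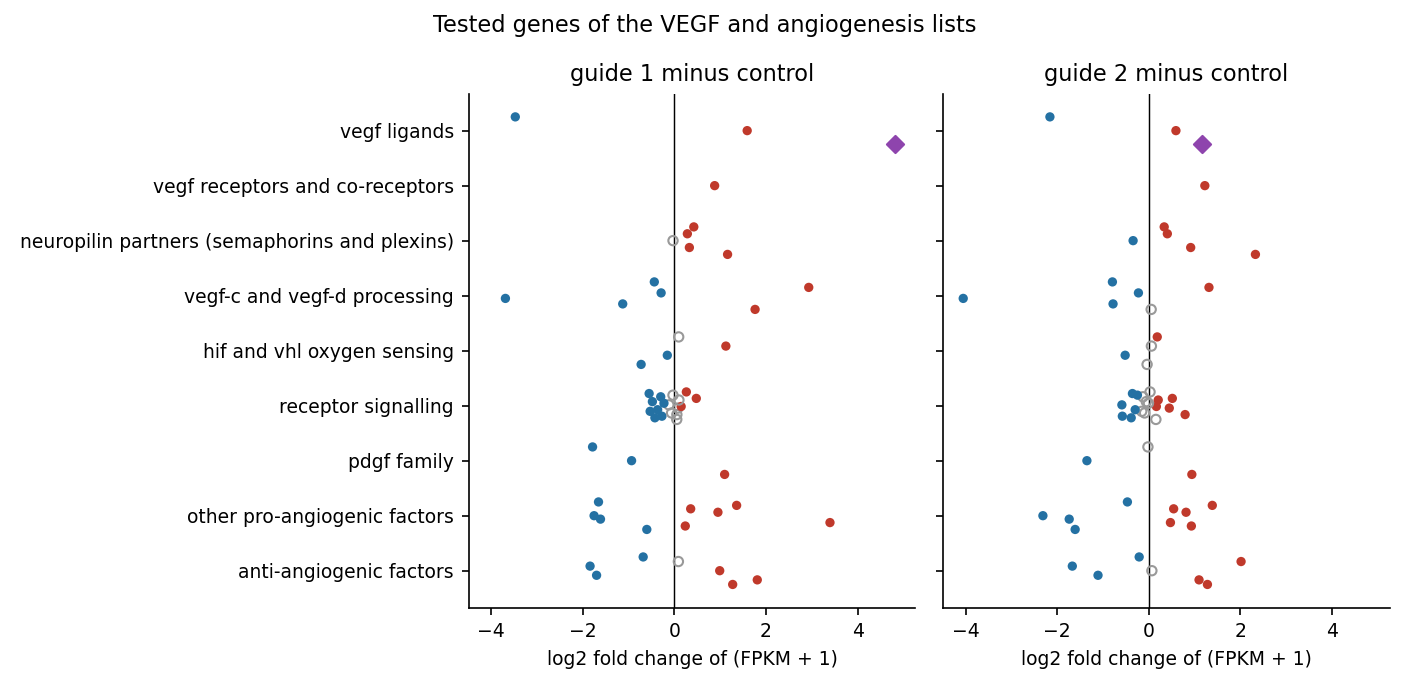
Log2 fold change of FPKM + 1 against the control (horizontal axes) with guide 1 and guide 2 for every tested gene of 9 lists (rows). Red and blue points were called higher and lower, open points were not called, and the purple diamond is Pgf, shown without a call. Pgf is the rightmost point with guide 1, at 4.82, and points lie on either side of 0 in most lists.

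Other factors that promote vessel growth went both ways. Of 23 genes 9 were tested, with 5 called higher and 4 lower with each guide. Over all genes tested, 68.1% were called in either direction with guide 1 and 65.4% with guide 2. Ccn2, a matricellular growth factor, rose with each guide: the control had 59.9 ± 11.0 FPKM (SD, n = 3), guide 1 had 635 ± 42.1 and guide 2 had 82.7 ± 3.77. The chemokine Cxcl12 fell from 373 ± 13.9 FPKM to 121 ± 4.42 and 111 ± 1.14, and Apln, the ligand of the apelin receptor, from 31.9 ± 1.76 FPKM to 8.77 ± 0.617 and 5.63 ± 0.377. Fgf2 fell from 6.28 ± 0.0671 FPKM to 3.80 ± 0.318 and 1.39 ± 0.175, but its exons overlap those of Nudt6 on the other strand in GENCODE, and how strand was counted is not stated. Ptn, a heparin-binding growth factor, fell from 2.94 ± 0.595 FPKM to 0.243 ± 0.0982 and 1.83 ± 0.125.

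Of 15 inhibitors of vessel growth 7 were tested, with 3 called higher and 3 lower with each guide. The shares called in either direction over all genes tested were 68.1% with guide 1 and 65.4% with guide 2. Col18a1, whose protein holds endostatin, rose with each guide: the control had 1.21 ± 0.0649 FPKM (SD, n = 3), guide 1 had 6.74 ± 0.331 and guide 2 had 3.72 ± 0.204. Adamts1, a protease that binds VEGF-A, fell from 27.0 ± 1.96 FPKM to 6.81 ± 0.586 and 7.81 ± 0.891. Cxcl10, an angiostatic chemokine, stood at 1.98 ± 0.263 FPKM in the control, 2.17 ± 0.304 with guide 1 (limma adjusted p = 0.375) and 11.0 ± 0.229 with guide 2 (limma adjusted p = 1.49e-08). Cxcl10 exons overlap those of Art3 on the other strand.

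Over the 9 lists without the members, 111 genes were listed, 66 have a row and 52 were tested. With guide 1, 19 were called higher and 23 lower, beside 30.2% and 37.9% of all genes tested. With guide 2, 20 were called higher and 20 lower, beside 31.9% and 33.5%. In both guides 15 were called higher and 17 lower, and the medians of -0.03 and -0.01 log2 units lay near those of all genes. Among all genes tested, 22.6% were called higher and 26.2% lower with each guide. Between the guides 17 of the listed genes were called higher with guide 2 and 19 lower, beside 31.2% and 23.3% of all genes tested. In GENCODE, exons of Ccbe1, Ccn2 and Pdgfc overlap predicted genes on the other strand, and exons of Pcsk6 overlap one on the same strand, so fragments could have been divided differently there.

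Pgf takes its name from the placenta, so genes of trophoblast were also read. Of 25 listed genes 6 have a row and 2 were tested, and both were called higher with each guide, as were 22.6% of all genes tested. With 2 genes tested, the count says little of trophoblast genes as a set. Prl2c2, a prolactin-family hormone also called proliferin, was listed at 0.144, 0.254 and 0 FPKM in the control, at 13.6, 14.5 and 12.7 FPKM with guide 1, and at 6.68, 6.30 and 7.73 FPKM with guide 2. Prl2c2 has near-identical gene copies, so its level is uncertain. Cited2, a coregulator that is not restricted to trophoblast, rose from 15.4 ± 1.45 FPKM (SD, n = 3) to 83.3 ± 2.23 and 26.1 ± 1.88. The other 4 with a row, Synb, Plac1, Tfap2c and Elf5, had means of at most 0.0391 FPKM.

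The pattern of Pgf over the 9 libraries was set beside that of 4355 tested genes. These are the 4646 with a mean of 5 FPKM or more, without Pgf itself and without 290 predicted genes and pseudogenes passed over by name. The 5 with the highest Pearson r of log2(FPKM + 1) were Csrp1, a LIM-domain protein of actin filaments (0.997), Ier5, an immediate early gene (0.997), Trib1, a pseudokinase (0.997), Pmaip1, the apoptosis gene Noxa (0.996), and Pmm1, a phosphomannomutase (0.996). The points share 3 groups, so r compares little more than 3 group means, and 26 genes had an r of 0.99 or more. The size of the change is not part of this measure: the control level of Pmm1 was 15.6 ± 0.0364 FPKM (SD, n = 3), and with guide 1 it was 20.8 ± 0.0619. For Pmaip1 the control had 2.92 ± 0.236 FPKM, guide 1 had 26.3 ± 1.47 and guide 2 had 5.13 ± 0.451. Of these 5, 0 stayed among the top 5 with a pseudocount of 0.1 or with Spearman's rho. Among the family, r with Pgf was 0.984 for Vegfa, 0.988 for Kdr, 0.458 for Nrp1, -0.234 for Flt4 and -0.897 for Vegfd.

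**Figure D4:**
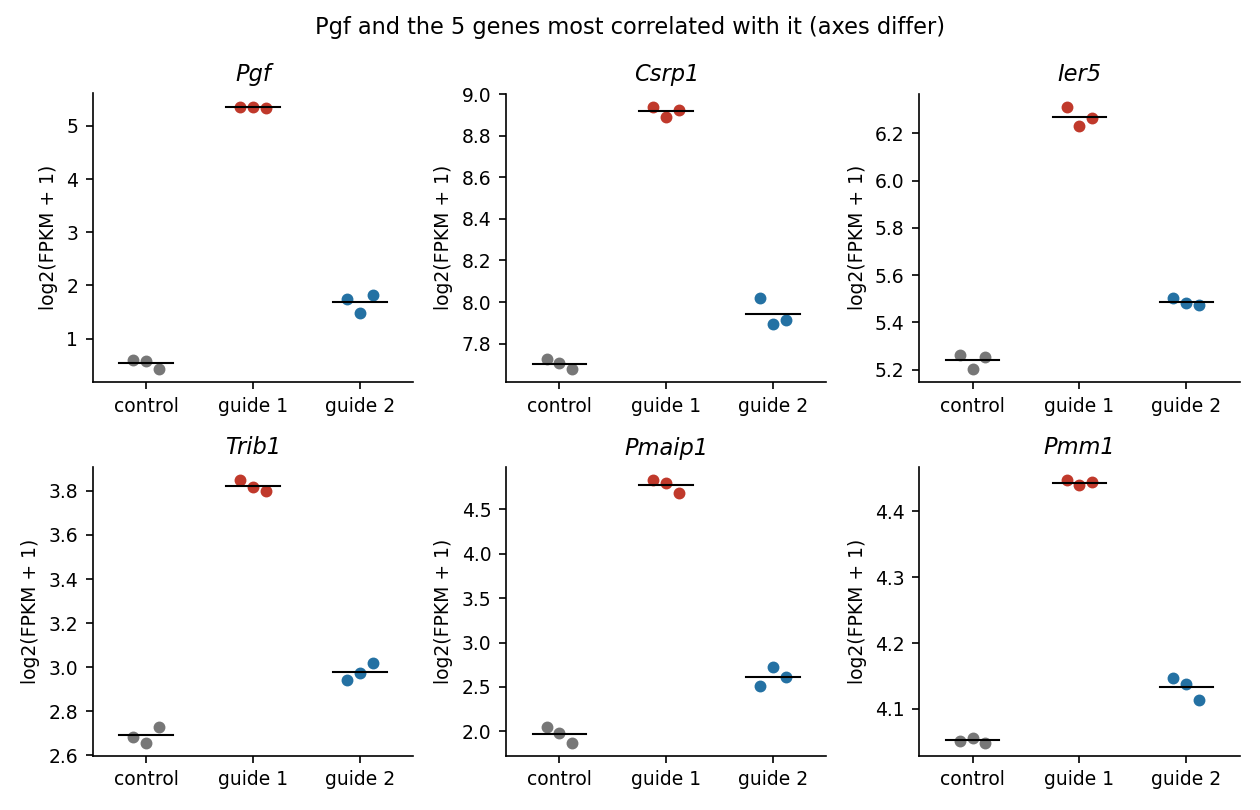
Log2(FPKM + 1) (vertical axes, which differ and do not start at 0) of Pgf and of the 5 genes most correlated with it, by group. Points are libraries and lines are group means. Each gene is highest with guide 1 and lowest in the control, with guide 2 near the control.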

How the data were processed

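Stranded libraries of polyadenylated RNA were read from both ends, per the labels' protocols. The authors deposited FPKM for 9 libraries, per the file headers. Per the submitters' processing notes, StringTie, HISAT2, cutadapt and FastQC were used. Tool versions, genome build and annotation were not given in the sources used here. Groups and replicate numbers came from sample titles. The table holds 15620 rows, of which 174 rows sharing 62 symbols were left out. Another 8481 genes with a mean under 1 FPKM were not tested. No 2 libraries were identical.

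Models of log2(FPKM + 1) were fitted in R 4.3.3 by limma 3.58.1 to the 9 libraries together, letting the prior variance follow the mean. A call is a Benjamini-Hochberg adjusted p under 0.05 over all 6965 genes. FPKM removes read totals, so counting error is unknown. In all 3 contrasts were fitted, and lists were described by counts and medians only. On data simulated for guide 1 against control over the genes tested, changes were set in 200 genes with a control mean above 3 log2 units. Of changes of 0.5, 1 and 2 log2 units, 92.5%, 98.0% and 100% were recovered, with 7.04%, 7.11% and 4.31% of calls false. Recovery for genes of lower level, such as Pgf and Nrp1, was not measured.

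The members and lists were chosen with earlier results of these data known. Named from each list were the 3 tested genes with the largest change against control among those called, plus any called between guides at 1 log2 unit or more. Marker lists of cell types are given mainly as counts and sums. Perp, Itgb4, Mtf1, Erg, Plvap and Vwf were named, and motifs for the GC box and AP-1 added, after the first values were seen. Same-numbered libraries were checked for pairing by the correlations of their deviations from group means. These ran from -0.107 to 0.245, and those of different-numbered libraries from -0.234 to 0.163. The highest, 0.245 and 0.210, were of same-numbered guide 1 and guide 2 libraries (replicates 1 and 3). Whether the numbers pair the libraries is therefore not settled. The alternatives tried changed the pseudocount (0.1), the filter (none, or 5 FPKM), the scaling (quantiles, or means trimmed by 30% on each side), the prior variance (constant) and the libraries fitted (only those compared, or all but 1). Others added a replicate block, or multiplied the p-values against control by 1.5 because nearly all rows have both knockouts on one side of the control.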

Additional observations from a re-analysis of the deposited data

Results flagged for a closer look

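Vegfa, Vegfd and Nrp1 differed between the 2 knockouts in a direct test of guide 2 against guide 1, so that their effects against the control are unequal. Vegfd was 1.32 log2 units higher with guide 2, Vegfa was -0.997 log2 units relative to guide 1, and Nrp1 was 0.35 log2 units higher with guide 2. For Vegfa and Vegfd guide 1 lies farther from the control, and for Nrp1 guide 2 does. With 1 clone per guide, a difference between guides cannot be told apart from a difference between clones.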

How the results depend on the processing

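Vegfa, Vegfd and Nrp1 kept their direction and their call in each of the 3 comparisons under every alternative in which they were tested, with the highest adjusted p at 0.0116, for Nrp1 between guides. The log2 difference of Pgf was 6.20, 2.09 and -4.11 with a pseudocount of 0.1 for guide 1 and guide 2 against control and for guide 2 against guide 1, against 4.82, 1.15 and -3.66 with a pseudocount of 1. When single libraries were left out these ran from 4.77 to 4.85, from 1.09 to 1.26 and from -3.73 to -3.56. With a filter at a mean of 5 FPKM fewer genes are tested, and 10, 11 and 11 pathway genes were called higher in the 3 comparisons. Of the 5 genes most like Pgf, 0 were kept with a pseudocount of 0.1, 0 with Spearman's rho and 3 with quantile normalization, and the cause was not tested. Under the replicate block 4764, 4559 and 3784 genes were called, against 4745, 4557 and 3793 without it, and among the named genes the block ended only the call of Pdgfc between guides (adjusted p = 0.0591, limma). In all, 41 of 2252 alternative values lost a call, in Plxna3, Pdgfc, Mtf1, Cxcl12 and Sema3b, 2 gained one, and 0 reversed. Another 11, which are counts, levels or differences of Pgf, moved beyond the limit set for them. Many of the 2252 could not lose a call, such as counts, levels, values of Pgf and genes not called at first. The total is therefore no measure of how stable the calls are. FPKM gives no read counts, so the precision of values under 1 FPKM, such as those of Kdr and those of Flt4 in the knockouts, is unknown.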
